A study of Rattus norvegicus with 3 samples.

Results

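Cyclin D1 (Ccnd1), proliferating cell nuclear antigen (Pcna), cyclin A2 (Ccna2), cyclin-dependent kinase 1 (Cdk1), the Ki-67 antigen (Mki67) and the kinase inhibitor p21 (Cdkn1a) were followed in regrowing rat liver. These 6 genes were chosen by name as cell-cycle genes, out of 26404 Ensembl gene identifiers in the count tables. Liver RNA came from adult rats in 3 groups. The healthy group had no operation and no treatment. The saline group received 1 ml of saline, the vehicle, ahead of a 2/3 partial hepatectomy, and its livers were collected 32 hours after surgery. The etanercept group had the same operation and collection time and received etanercept at 9 mg/kg in 1 ml, 16 to 18 hours before surgery. Etanercept is a soluble TNF receptor fusion protein that binds TNF. RNA of 3 rats was pooled per group and sequenced as 1 library, so no spread between animals can be given and every difference below is one between libraries. There was no sham operation, so regrowth and other effects of surgery cannot be told apart. The labels name neither strain nor sex.

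Hepatocytes of the adult liver are mostly quiescent and re-enter the cell cycle after part of the organ is removed. Cyclin D1 binds CDK4 and CDK6 and drives the passage through G1. PCNA is the sliding clamp that holds DNA polymerase on its template during replication. Cyclin A2 acts in S phase and G2, CDK1 is the kinase that brings cells into mitosis, and Ki-67 is a nuclear protein of cycling cells used as a proliferation marker. p21 inhibits cyclin-CDK complexes, binds PCNA, and is a target of p53.

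The libraries held 2645152 (saline) to 5993834 (healthy) reads in genes. Gene reads made 79.4% of all uniquely aligned reads in healthy liver and 77.5% after saline, but only 20.9% after etanercept, where 77.4% fell outside genes. That difference is present in every comparison with the etanercept library, and its part in the results was not tested. Levels are given as CPM, the counts of a gene per 1000000 counts of its library, with library sizes scaled by the trimmed mean of M-values (TMM). A gene was called higher or lower when its fold was at least 2 and its level at least 5 CPM in the higher library. Brackets give 95% counting intervals. In whole tissue, a smaller number of cells with a transcript and less of it per cell cannot be told apart. Liver cell markers were not checked, since the tables name genes by identifier alone. Levels are not compared between genes, because transcript lengths were not used here. The ratios and shares of member reads given below also depend on transcript length and serve to compare libraries.

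All 6 transcripts were higher 32 hours after hepatectomy with saline than in healthy liver. The folds were larger for Ccna2, Cdk1 and Mki67 than for Ccnd1, Pcna and Cdkn1a. For comparison, the rule called 19.0% of the 9755 genes tested, 9.32% of them as higher and 9.66% as lower. The median log2 fold was 4.23 over the 6 members, or 4.11 with Ccna2 at its lower bound, and -0.07 over all genes tested. Of the members, 4 were under 5 CPM in the healthy library and met the level rule through the saline library. Such genes are mostly called, 70.2% of 752 in the whole table, with a median log2 fold of 1.52, so their being called adds little and the sizes of the folds are the description. Ccnd1 and Pcna were above 5 CPM in both libraries.

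**Figure D1:**
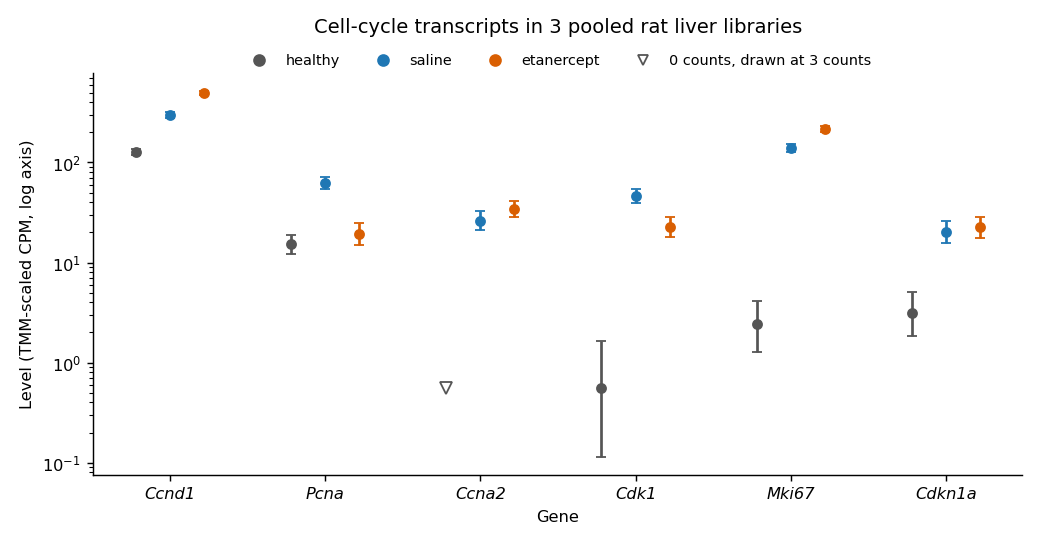
Level of each transcript by library (healthy, saline, etanercept) in TMM-scaled CPM on a log axis. Points are single pooled libraries and bars 95% Poisson counting intervals; Ccna2 had 0 counts in the healthy library and is drawn at 3 counts, 0.559 CPM. The healthy library is lowest for all 6 genes, and Pcna and Cdk1 are lower with etanercept than with saline.

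Ccnd1 (ENSRNOG00000020918) had 682 counts in healthy liver, 961 with saline and 1633 with etanercept. These are levels of 127 CPM [118 to 137], 297 CPM [279 to 316] and 492 CPM [468 to 516]. The intervals are apart, with healthy lowest and etanercept highest. Ccnd1 was 2.34-fold higher in saline than in healthy liver [2.12 to 2.58], the smallest fold among the members, and 687 of the 9755 tested genes had a larger one. It was well detected before any operation, and 95.9% of identifiers had fewer counts in healthy liver.

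Pcna (ENSRNOG00000021264) had 82 counts in healthy liver, 202 with saline and 64 with etanercept. Its level was 15.3 CPM [12.1 to 18.9] in healthy liver, 62.4 CPM [54.1 to 71.7] with saline and 19.3 CPM [14.8 to 24.6] with etanercept. The saline library stands above the others, whose intervals overlap. Pcna was 4.08-fold higher with saline than in healthy liver [3.15 to 5.35], a fold that 333 tested genes exceeded. RefSeq lists 3 pseudogenes named for Pcna, 1 for Cdk1 and 1 for Mki67. Reads shared with such copies would not be among the gene counts, so the levels of these 3 genes are uncertain.

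Ccna2 (ENSRNOG00000015423) was not detected in the healthy library, with 0 counts, which allows up to 0.559 CPM at 3 counts. With saline it had 85 counts (26.3 CPM [21.0 to 32.5]), and with etanercept 114 counts (34.3 CPM [28.3 to 41.2]). Both hepatectomy libraries are far above that limit and their intervals overlap. Against the limit, Ccna2 was at least 47.0-fold higher with saline and at least 61.5-fold higher with etanercept than in healthy liver. These bounds divide by 3 counts and leave out the counting error of the hepatectomy libraries.

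Cdk1 (ENSRNOG00000000632) had 3 counts in healthy liver, 151 with saline and 76 with etanercept. Its levels were 0.559 CPM [0.115 to 1.63], 46.7 CPM [39.5 to 54.7] and 22.9 CPM [18.0 to 28.7]. The intervals are apart, with saline highest. Cdk1 was 71.9-fold higher with saline than in healthy liver, and the interval [28.1 to 409.7] is wide because of the 3 healthy counts. A larger fold was found for 40 tested genes.

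Mki67 (ENSRNOG00000028137) had 13 counts (2.42 CPM [1.29 to 4.14]) in healthy liver, 456 (141 CPM [128 to 154]) with saline and 714 (215 CPM [199 to 231]) with etanercept. Again the intervals are apart, here with etanercept highest. The fold of saline over healthy was 56.1 [33.7 to 110.2], exceeded by 49 tested genes.

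Cdkn1a (ENSRNOG00000000521) had 17 counts in healthy liver (3.17 CPM [1.84 to 5.07]), 66 with saline (20.4 CPM [15.8 to 25.9]) and 75 with etanercept (22.6 CPM [17.8 to 28.3]). The hepatectomy libraries overlap and both lie above healthy. The inhibitor was higher together with the cyclins and the kinase, 6.31-fold with saline [3.74 to 11.7], and 218 tested genes had a larger fold.

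The start-site regions of Cdk1 and Mki67, the members with the largest folds for which a sequence was at hand, are shown because promoters of late cell-cycle genes are known for a pair of elements. These are the cell-cycle genes homology region (CHR, searched as TTTGAA), bound by the MuvB complexes that repress these genes in quiescence, and the CCAAT box, bound by NF-Y. Windows of 300 bases, 250 before and 50 after the RefSeq start site, matched 4 of the 6 members by symbol and were searched on both strands. The Cdk1 stretch is chr20:19265043-19265251 (GRCr8, plus strand), the part of its window before the annotated gene, and Mki67 is shown by 30 bases at chr1:199952681-199952710 (minus strand). Capitals mark CHR matches and, in Cdk1, also CCAAT boxes (as ATTGG) and the E2F motif.
Cdk1: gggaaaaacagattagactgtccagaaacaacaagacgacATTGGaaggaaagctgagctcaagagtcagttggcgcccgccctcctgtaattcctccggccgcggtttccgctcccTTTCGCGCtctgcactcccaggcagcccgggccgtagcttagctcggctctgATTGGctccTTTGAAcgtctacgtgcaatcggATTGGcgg
Mki67: TTTGAAccgccgttttcgTTTGAAttgggc

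The Cdk1 window held 2 CHR matches, at positions -72 and -16 from the start site, of which the first is in the stretch shown. It also held 3 CCAAT boxes, at -210, -81 and -49, and 1 E2F motif at -133. E2F was searched as TTTCCCGC, TTTCGCGC, TTTGCCGC and TTTGGCGC. The Mki67 window held 2 CHR matches, at -117 and -99, and 4 CCAAT boxes, of which the one at -94 shares a base with the second CHR. The RefSeq gene span of Mki67 covers this window, as another annotated transcript starts farther out. Of all 33469 windows of this length, 18.3% held a CHR match, 37.5% a CCAAT box and 2.14% an E2F motif. A match of letters is a description of the sequence and not a measured binding site.

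Pcna and Cdkn1a had 0 CHR matches in their windows, and no window was at hand for Ccnd1 and Ccna2. Whether such matches relate to the folds was not tested. The Pcna sequence is chr3:139955821-139956070 (GRCr8, minus strand), the 250 bases before its start site, with its only CCAAT box, at -168, in capitals. The Cdkn1a sequence is chr20:7150682-7150819 (plus strand), with a p53 half-site at -201 in capitals. It covers positions -250 to -113, because the annotated gene span begins inside the window, before the start site used. The matches of Cdkn1a are those around this start site only. The sequence is shown because p21 is a p53 target, and 7.98% of all windows held such a half-site.
Pcna: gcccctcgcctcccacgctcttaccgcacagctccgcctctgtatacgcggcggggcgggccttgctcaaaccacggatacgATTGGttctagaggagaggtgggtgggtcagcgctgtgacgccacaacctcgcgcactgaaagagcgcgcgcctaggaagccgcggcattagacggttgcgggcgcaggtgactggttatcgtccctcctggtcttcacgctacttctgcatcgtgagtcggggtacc
Cdkn1a: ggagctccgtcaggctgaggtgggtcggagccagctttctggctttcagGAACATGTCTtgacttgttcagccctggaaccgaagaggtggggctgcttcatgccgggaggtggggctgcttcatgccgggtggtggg

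The promoters were also searched for the GC box, GGGCGG, which 33.1% of windows held. Mki67 had 7 matches, some of them overlapping, Pcna and Cdk1 had 1 each and Cdkn1a had 0. Cdkn1a also had 0 CCAAT boxes and 0 E2F motifs. Pcna had 0 E2F motifs by these letters, and so did Mki67.

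**Figure D2:**
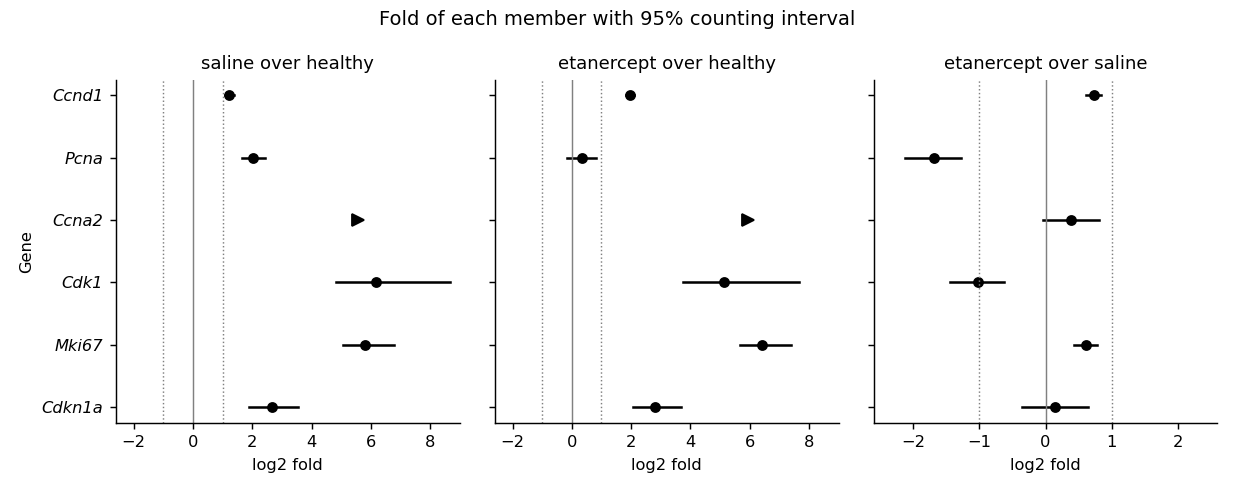
Log2 fold of each gene in the 3 comparisons; points are single library pairs, lines 95% counting intervals, and dotted lines mark 2-fold. Arrowheads for Ccna2 are lower bounds against 3 counts in the healthy library. All 6 genes lie right of the dotted line in saline over healthy, and Pcna lies near 0 in etanercept over healthy.

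In the etanercept library, 5 of the 6 transcripts were called higher than in healthy liver and Pcna was not. Of the 10069 genes tested here, the rule called 46.0%, with 21.9% higher and 24.0% lower. For the genes under 5 CPM in the healthy library, as Ccna2, Cdk1, Mki67 and Cdkn1a were, 84.9% of 1066 were called higher and the median log2 fold was 2.25. The median log2 fold over the members was 3.97, against -0.04 over all genes tested. This comparison uses the same healthy library as the one with saline, so the values stand side by side and are no second support.

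Mki67 was 85.6-fold higher with etanercept than in healthy liver [51.6 to 167.7] and Cdk1 was 35.4-fold higher [13.5 to 203.1]. Larger folds were found for 69 and 149 of the tested genes. Cdkn1a was 6.98-fold higher [4.17 to 12.9] and Ccnd1 3.87-fold higher [3.54 to 4.24], exceeded by 565 and 994 genes. For Pcna the fold was 1.26 [0.896 to 1.77], and 3864 genes had a larger one. The interval includes 1 and stays under 2, so at this depth no difference in Pcna from healthy liver was detectable, while a doubling is outside its counting error.

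**Figure D3:**
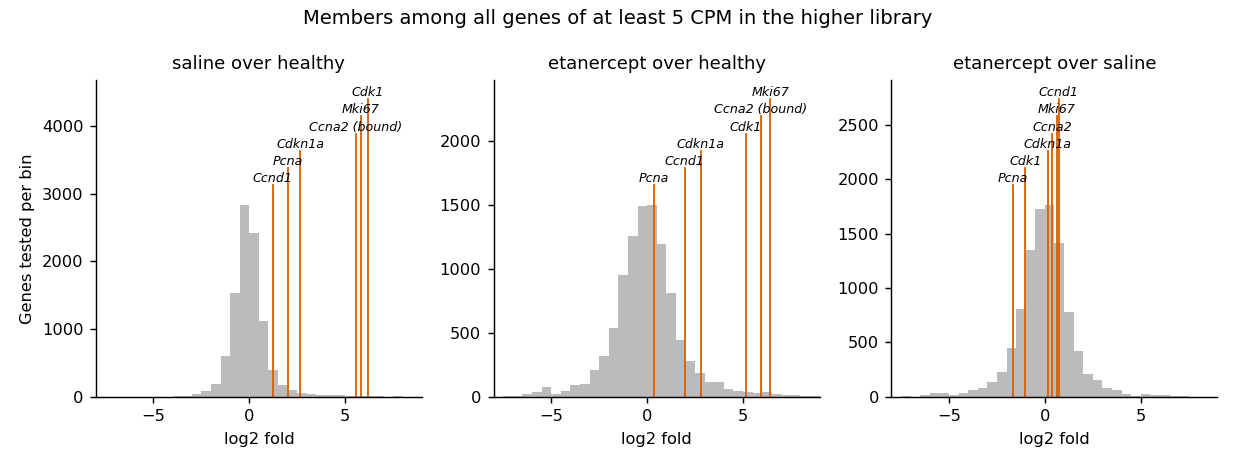
Histograms of log2 fold over all genes tested in each comparison (bins of 0.5), with the members as vertical lines and Ccna2 at its lower bound over healthy. Line heights only separate the labels, and 1, 5 and 4 genes lie beyond the axes. In both comparisons with healthy liver Cdk1, Mki67 and Ccna2 stand in the right tail, and in etanercept over saline the members lie within the bulk of genes.

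The direct comparison of the hepatectomy groups sets the etanercept library against the saline library. TNF binding was not measured in these data. Pcna and Cdk1 were called lower with etanercept than with saline, 0 members were called higher, and 4 were called in neither direction. The rule called 37.5% of the 9991 genes tested, 18.3% as higher and 19.2% as lower, so 2 of 6 members is a share near that of all genes. The median log2 fold was 0.27 over the members and 0.00 over all genes. All 6 members were above 5 CPM in the saline library.

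Pcna, the replication clamp, was 3.22-fold lower with etanercept [2.43 to 4.36], from 62.4 to 19.3 CPM, and 903 genes had a smaller etanercept over saline ratio. Cdk1 was 2.03-fold lower [1.54 to 2.72], from 46.7 to 22.9 CPM, and 1860 genes had a smaller ratio. The interval of Cdk1 covers 2-fold, and with median-of-ratios scaling its log2 fold was -0.998, just short of the call. Ccnd1 was 1.66-fold higher with etanercept [1.53 to 1.79] and Mki67 1.53-fold higher [1.36 to 1.72], short of 2-fold but with intervals above 1. The ratios of Ccna2, 1.30 [0.978 to 1.75], and Cdkn1a, 1.11 [0.785 to 1.57], had intervals that include 1.

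How these differences read depends on what the reads are scaled to. With total gene reads every etanercept over saline log2 fold shifts by -0.42. Ccnd1 and Mki67 then stood at 0.30 and 0.19, and Ccna2 and Cdkn1a changed sign to -0.04 and -0.28. Leaving out the most abundant genes changed the sign of Cdkn1a as well, to -0.12. Scaled to all uniquely aligned reads, of which the etanercept library had 17442733, mostly outside genes, all 6 members were lower than with saline, with log2 folds from -4.00 for Pcna to -1.59 for Ccnd1. The median over all genes tested was then -2.42. In that scaling Pcna was 2.95-fold lower than in healthy liver and Ccnd1 was level with it, at 1.04-fold. Rescaling adds a constant to all log2 folds, so the order of the members is fixed whichever is used.

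**Figure D4:**
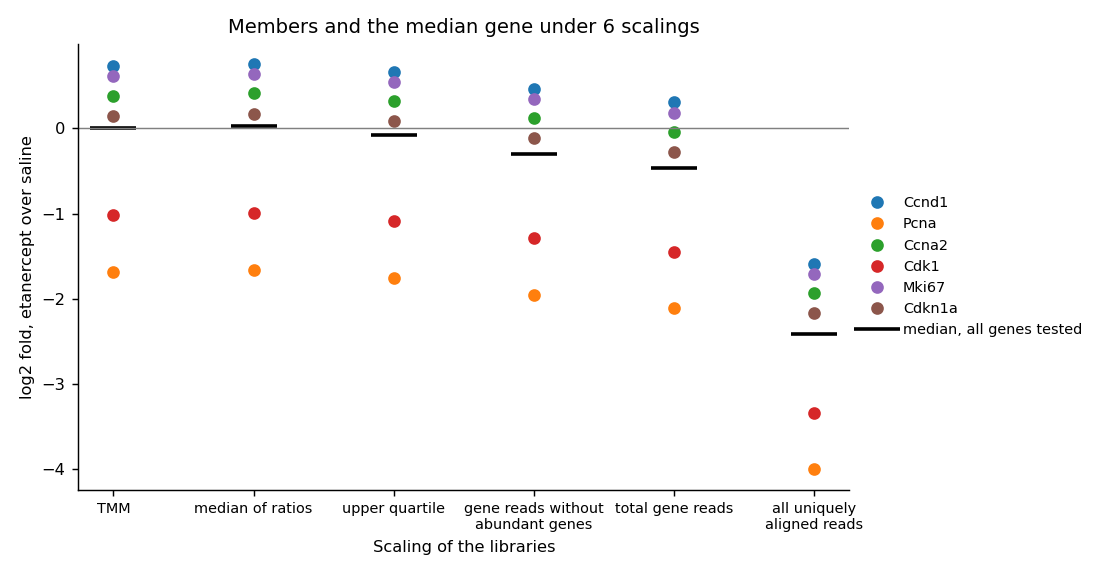
Log2 fold of etanercept over saline for each gene (coloured points) and the median of all genes tested (black bars) under 6 ways of scaling the libraries. The whole column moves together, down to a median of -2.42 with all uniquely aligned reads.

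Ratios between members within a library do not depend on scaling. For each Mki67 read there were 0.331 Cdk1 reads with saline and 0.106 with etanercept, a 3.11-fold lower ratio [2.28 to 4.26]. Pcna reads per Mki67 read went from 0.443 to 0.0896, 4.94-fold lower [3.62 to 6.81]. The ratio of Ccna2 to Mki67 was 0.186 with saline and 0.160 with etanercept, a change of 0.857 [0.625 to 1.18]. Ccnd1 to Mki67 was 2.11 and 2.29, a change of 1.09 [0.939 to 1.25]. The ratio of cyclin A2 to its partner kinase CDK1 differed between the hepatectomy libraries, with 0.563 Ccna2 reads per Cdk1 read after saline and 1.5 after etanercept, a 2.67-fold change [1.76 to 4.03]. The ratio of Pcna to Cdk1 also differed, 1.34 against 0.842, with an interval of the change close to 1 [0.416 to 0.951].

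**Figure D5:**
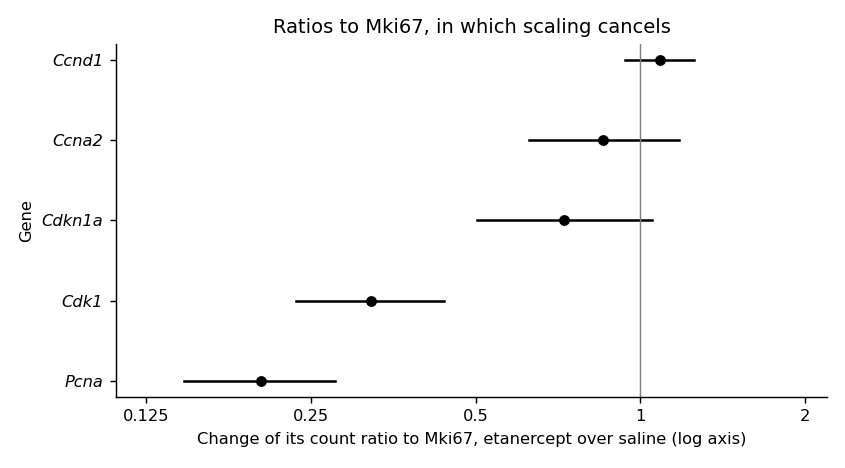
Change from saline to etanercept in the count ratio of each gene to Mki67, on a log axis; points are ratios of single libraries and lines 95% counting intervals. Cdk1 and Pcna lie at 0.321 and 0.202, left of 1, and the intervals of Ccnd1, Ccna2 and Cdkn1a include 1.

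The ratio of Ccnd1 to Cdkn1a changed 1.495-fold from saline to etanercept [1.05 to 2.13]. Such intervals were computed for all 15 pairs of members and were not adjusted for their number, and ratios between other genes were not computed. Between healthy liver and saline, the ratio of Cdk1 to Mki67 went from 0.231, with 3 Cdk1 counts, to 0.331, a change of 1.44 [0.387 to 7.95]. Pcna to Cdkn1a went from 4.82 to 3.06, a change of 0.635 [0.329 to 1.18]. Both intervals include 1. Of the 10 pairs compared between these libraries, without Ccna2 and its 0 healthy counts, these are the only 2, and 8 exclude 1. Among the 8, Ccnd1 to Mki67 was 24.9-fold lower with saline than in healthy liver [14.2 to 47.5]. Pcna to Mki67 was 14.2-fold lower [7.63 to 28.4].

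Unscaled reads of the 6 members together numbered 797 in healthy liver, 1921 with saline and 2676 with etanercept. The libraries held 5993834, 2645152 and 3639886 gene reads in the same order, so these totals do not compare levels. Ccnd1 made up 85.6% of the member reads in healthy liver, 50.03% with saline and 61.0% with etanercept. Mki67 took 1.63%, 23.7% and 26.7%. Pcna held 10.3% in healthy liver, 10.5% with saline and 2.39% with etanercept. Cdk1 went from 0.376% to 7.86% with saline and 2.84% with etanercept.

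Across the 3 libraries Cdk1 and Mki67 lay at a Euclidean distance of 1.21 between log2 CPM values centred on each gene's mean. Their log2 folds of etanercept over saline went opposite ways, at -1.02 and 0.61. Ccnd1 and Cdkn1a, at 1.02, were the nearest pair, and Ccna2 and Pcna the farthest at 6.03, a value that depends on the pseudocount for the 0 counts of Ccna2. Among 6459 genes of at least 20 CPM in their highest library, ENSRNOG00000018371 was nearest to the median profile of Ccna2, Cdk1 and Mki67, at a distance of 0.245. It stood at 1.86 CPM in healthy liver, 174 CPM with saline and 136 CPM with etanercept. Next was ENSRNOG00000009334 at 0.276, with 0.186, 24.4 and 18.7 CPM, where the healthy value is 1 count. Both identifiers stood lower with etanercept than with saline, with 452 against 564 counts and 62 against 79 counts, and no interval was computed for them. They were picked by likeness to a profile that includes Cdk1 over these same libraries. That Cdk1 also stood lower with etanercept is therefore no separate support. The etanercept over saline folds of Mki67 and of Ccna2, whose interval includes 1, were above 1. The tables do not name these genes, and 3 libraries give few points to compare a profile on.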

How the data were processed

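Each of the 3 groups has 1 library, made from the pooled RNA of 3 rats per the series description. The authors deposited whole-number read counts for Ensembl gene identifiers, without normalization. The submitters' processing notes name TopHat2 2.0.13 and HTSeq 0.6.1. The build, the annotation and the strand setting were not given in the sources used here, so reads antisense to a gene may be among its counts. Per the summary rows of the files, multiply aligned reads were kept out of the gene counts, so genes with near-identical copies can be undercounted.

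Summary rows that name no gene stayed out of library sizes. Counts were scaled to CPM with TMM factors of 0.896 (healthy), 1.22 (saline) and 0.912 (etanercept) from edgeR 4.0.16 in R 4.3.3. Folds compare scaled counts after a pseudocount of 0.5 counts was added in each library. Fold intervals are 95% Clopper-Pearson intervals of the share of counts, level intervals are exact Poisson, and intervals of ratio changes are exact conditional ones (scipy 1.17.1, Python 3.11.15). All intervals cover counting error only. With 1 library a group, no significance test was run. Simulated data with known folds were used to test the calling rule.

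The 6 members, the calling rule and the gene lists were chosen with earlier results of these data known. All 6 members are named, and 2 further identifiers by likeness over the 3 libraries. Symbols are those paired with the identifiers in the choice of members. The reference table used here paired 0 of the 26404 identifiers with a symbol, so that pairing was not checked. Lists of other cell-cycle genes and of cell type markers, written by symbol, were not scored for the same reason. Alternatives covered scaling (median of ratios from DESeq2 1.42.0 among them), pseudocount, minimum level and fold. Scaling over all uniquely aligned reads and TMM over the compared pair of libraries were added after the data were seen. Promoter sequences are from RefSeq (GRCr8) and were matched by symbol.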

Additional observations from a re-analysis of the deposited data

Results flagged for a closer look

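Some classes of reads that the gene comparisons do not use stood above the healthy level. The share of uniquely aligned reads outside genes was 19.9% in healthy liver, 21.7% with saline and 77.4% with etanercept. The share that overlapped more than 1 gene, left out of the gene counts, was 0.729%, 0.871% and 1.69%. Entries aligned to several places numbered 3.17 for each uniquely aligned read in healthy liver, 4.14 with saline and 2.10 with etanercept, so this class was above healthy with saline and below it with etanercept. Reads from Pcna, Cdk1 or Mki67 that also match their pseudogenes would fall in this last class, and their number was not tested. With 1 library per group these differences have no replicate check.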

How the results depend on the processing

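In saline over healthy, all 6 members were called under every scaling, pseudocount and minimum level tried, and 5 at a fold of at least 3, where Ccnd1 dropped out. In etanercept over healthy the 5 members other than Pcna were called under each of these except scaling over all uniquely aligned reads. That scaling called 3 (Ccna2 and Mki67 higher, Pcna lower). In etanercept over saline the count of called members was 2, but 1 (Pcna) with median-of-ratios size factors and with a fold of at least 3, 4 with a fold of at least 1.5, and 6, all lower, over all uniquely aligned reads. Of 42 log2 folds recomputed for each comparison, 0, 1 and 7 changed sign in saline over healthy, etanercept over healthy and etanercept over saline, and none of these was called with TMM. Of those over all uniquely aligned reads, Pcna against healthy liver and Ccnd1, Ccna2, Mki67 and Cdkn1a against saline became called as lower.

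The number of genes called over the whole table moved more. Without a minimum level it was 5127, 8346 and 8078 in these comparisons, against 1851, 4627 and 3742, and with a minimum of 20 CPM it was 950, 2711 and 2085. A fold of at least 3 gave 777, 2678 and 1962. A fold of at least 1.5 gave 3848 in saline over healthy and 5964 in etanercept over saline. Over all uniquely aligned reads 7180 genes were called in etanercept over healthy and 8425 in etanercept over saline, 6915 and 8305 of them lower. Total gene reads shifted every log2 fold by 0.45 in saline over healthy and by -0.42 in etanercept over saline. The share of called genes that were higher was then 84.6% and 25.4%, against 49.1% and 48.8%. No paired analysis was possible because each group has 1 library, and no library could be left out of its group. Counts of 0 and 3 in the healthy library limit the folds of Ccna2 and Cdk1.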
